A study of Mus musculus with 6 samples.

Results

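Potassium, sodium and chloride channel genes were examined in engineered skeletal muscle made from C2C12, a mouse myoblast line whose cells fuse into contractile myotubes. Members were the rows of the gene table whose symbol begins with Kcn, Scn or Clcn in the pattern of a channel or channel-subunit gene (for example Kcna4, Scn4a, Clcn1), with 10 or more counts in at least 3 of the 6 libraries. Of 24421 rows, 117 matched by symbol and 63 met the count threshold. Of these, 60 are coding genes and 3 are noncoding transcripts at channel loci (Kcnq1ot1, Kcnmb4os1 and Kcnmb4os2), which match the pattern but encode no channel. Both groups held 3-dimensional constructs of C2C12 myotubes in a collagen gel held by artificial tendons. The vehicle group received phosphate-buffered saline. The other group received the cytokine TNF-alpha (tumour necrosis factor alpha) at 100 ng/mL for 72 h. There were 3 constructs in each group, called biological replicates 1 to 3. C2C12 is the only cell type that the labels name, and they do not say whether each construct was cast from its own batch of cells. The p-values therefore reflect the spread among these 6 constructs and no more.

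The muscle action potential rises when sodium channels open, each built from a pore-forming alpha subunit and small beta subunits. It is ended by voltage-gated potassium (Kv) channels, while inward rectifier potassium (Kir) channels and, in adult muscle, the ClC chloride channel encoded by Clcn1 hold the resting potential and damp repeated firing. Other members of these families are tandem-pore potassium (K2P) channels that carry background current, potassium channels opened by calcium or sodium, and ClC proteins of endosomes and lysosomes that exchange chloride for protons. Scn4a encodes the sodium channel of mature skeletal muscle, whereas Kcnn3, a small-conductance calcium-activated potassium channel, is known in muscle that is immature or has lost its nerve.

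Of the 63 members, all of which were tested, 27 rose and 12 fell with TNF-alpha, and 24 did not pass the test (edgeR quasi-likelihood, with p adjusted by Benjamini-Hochberg and a threshold of 0.05). That is 42.9% risen and 19.0% fallen, where 27.6% of the 15792 genes tested rose and 27.9% fell, and 61.9% called in either direction against 55.5%. By at least 2-fold, 15 of the 63 members rose and 7 fell, against 1338 (8.47%) and 1494 (9.46%) of the 15792 genes tested. Kcnmb4, Kcnmb4os1 and Kcnmb4os2 are all among these rises. Their counts cannot be separated, so they are not independent rises. The median log2 fold change was 0.26 for the members and 0.00 for all tested genes, and the median size of change was 0.72 and 0.36. These sizes were not compared at matched level, and 19 members had a mean under 1 CPM in both groups. In 28 members the 3 TNF-alpha libraries lay above all 3 vehicle libraries and in 14 below, where 32.6% and 31.9% of all tested genes did so. The count threshold admits a gene that is high in 1 group only. Without the 4 such members, 25 of 59 rose and 10 fell. The 4 are Kcna1 and Kcnj4, which rose, and Kcnh7 and Scn7a, which fell. All 4 are also in the counts of 2-fold changes and of separated groups above, which are therefore raised by the threshold. In 6 of 9 classes some members rose while others fell. The share called was 50% of Kv alpha subunits, 55.6% of auxiliary potassium subunits and 57.1% each of ClC and tandem-pore genes. It was 62.5% of inward rectifiers. These class shares stand beside the 55.5% of all tested genes. The other classes had 6 or fewer members, with 66.7% or 100% called. Differences between classes were not tested.

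**Figure D1:**
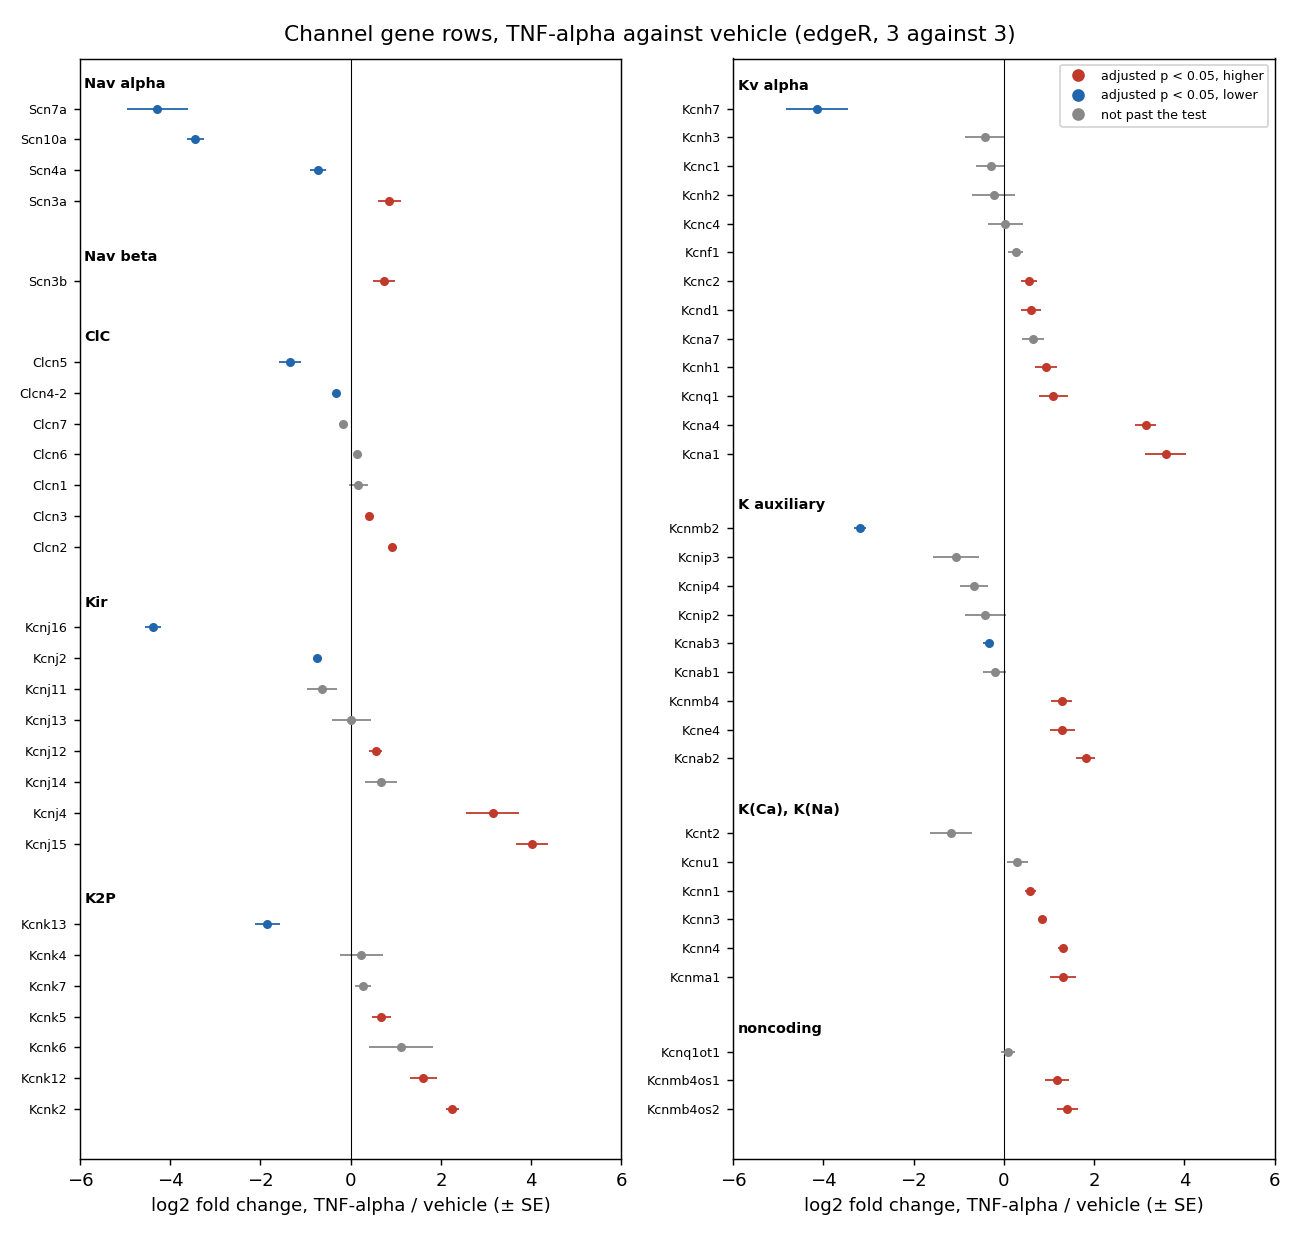
Log2 fold change of TNF-alpha over vehicle (horizontal axis, ± SE) for 58 of the 63 rows, grouped by channel class, with 3 libraries per group. Red points rose and blue points fell at an adjusted p under 0.05, and grey points did not pass. Kcnj16 lies farthest to the left at -4.38 and Kcnj15 farthest to the right at 4.02.

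Promoter windows in the RefSeq tables (GRCm38.p6, 250 bases before a transcript start) were available for 45 of the 63 members, as 65 windows. They were searched on both strands for the E-box CAGCTG, for the AP-1 motif TGANTCA, and for the NF-kB and MEF2 consensus motifs. CAGCTG stood in 16 of the 65 windows (24.6%) and in 13% of all 32851 windows. It was in 31% of the windows of members that rose, in 30.8% of those that fell and in 13% of those that did not pass. An NF-kB match was in 5 member windows (7.69%, against 3.9% of all windows), of which 3 were among the 29 windows of members that rose, 0 among the 13 of those that fell and 2 among the 23 of those that did not pass. TGANTCA was in 3 member windows (4.62%, against 6.75%) and a MEF2 match in 3 (4.62%, against 2.92%). These shares were not tested. A match is only a string of letters in the window. The windows below belong to the neighbours Kcnj16 and Kcnj2, which both fell, to Clcn5, which fell, to Kcna4, the largest rise among members above 3 CPM in both groups, and to Clcn1, which did not pass the test. They run 5′ to 3′ on the gene's strand, and capitals mark motif matches. Kcnj16 (chr11:110967783-110968032, plus strand) has CAGCTG at -149 and a MEF2 match at -19, counted from the start site. It is the farthest upstream of 4 windows of that gene. Kcnj2 (chr11:111065914-111066163, plus strand) has CAGCTG at -206, and Clcn5 (chrX:7319359-7319608, minus strand, 1 of 2 windows) at -42. Kcna4 (chr2:107290339-107290588, plus strand) has no match to any of the 4 motifs, and Clcn1 (chr6:42286435-42286684, plus strand) has an NF-kB match at -189 and a MEF2 match at -51. Of windows not shown, that of Kcne4, which rose, has CAGCTG at -147. Those of Scn4a, Scn10a, Kcnmb2 and Kcnk13, which fell, have no match to any of the 4 motifs.
Kcnj16: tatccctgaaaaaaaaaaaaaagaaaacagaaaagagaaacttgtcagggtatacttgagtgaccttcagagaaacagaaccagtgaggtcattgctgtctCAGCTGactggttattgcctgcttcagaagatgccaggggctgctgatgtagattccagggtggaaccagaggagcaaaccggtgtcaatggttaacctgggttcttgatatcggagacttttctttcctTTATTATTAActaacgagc
Kcnj2: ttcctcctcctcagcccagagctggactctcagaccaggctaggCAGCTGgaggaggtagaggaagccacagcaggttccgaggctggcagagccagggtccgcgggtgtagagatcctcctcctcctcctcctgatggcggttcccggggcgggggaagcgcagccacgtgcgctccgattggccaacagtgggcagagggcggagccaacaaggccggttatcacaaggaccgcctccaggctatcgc
Clcn5: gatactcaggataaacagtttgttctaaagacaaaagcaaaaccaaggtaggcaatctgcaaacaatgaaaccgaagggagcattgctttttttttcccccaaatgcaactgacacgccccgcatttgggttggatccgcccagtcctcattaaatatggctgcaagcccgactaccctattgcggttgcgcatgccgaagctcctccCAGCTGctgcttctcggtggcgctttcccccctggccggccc
Kcna4: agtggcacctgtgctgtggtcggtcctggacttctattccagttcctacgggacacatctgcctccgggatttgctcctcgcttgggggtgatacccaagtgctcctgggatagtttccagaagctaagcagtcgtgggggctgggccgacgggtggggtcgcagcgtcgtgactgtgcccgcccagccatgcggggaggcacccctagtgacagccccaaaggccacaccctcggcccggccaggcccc
Clcn1: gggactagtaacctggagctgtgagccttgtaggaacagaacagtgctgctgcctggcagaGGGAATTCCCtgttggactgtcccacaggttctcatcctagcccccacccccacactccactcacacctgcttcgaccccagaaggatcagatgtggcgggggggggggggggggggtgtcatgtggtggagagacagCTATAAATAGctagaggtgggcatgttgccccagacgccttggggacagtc

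Of 5 sodium channel alpha subunits, 4 fell and 1 rose. Levels are given in TMM-scaled CPM, a gene's count relative to the library total. Scn4a, the mature muscle isoform (GRCm38 chromosome 11, 106318592 to 106353288, minus strand), had 49.8, 75.0 and 78.0 CPM in the vehicle libraries and 35.8, 45.0 and 42.6 CPM in the TNF-alpha libraries. The groups did not overlap, with vehicle replicate 1 closest to the TNF-alpha libraries (log2 fold change -0.72 ± 0.18 SE, adjusted p = 0.0126). Per kilobase of exons, Scn4a stood at 9.60 ± 2.20 CPM per kb in vehicle (SD, n = 3) and at 5.84 ± 0.68 CPM per kb with TNF-alpha.

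Scn10a, known as a sodium channel of sensory neurons (chromosome 9, 119608456 to 119719322, minus strand), fell 10.9-fold, from 3.70, 4.17 and 3.90 CPM to 0.41, 0.38 and 0.29 CPM (-3.44 ± 0.19, adjusted p = 2.12e-06). Scn7a, a sodium-sensing relative that does not act as a classical voltage-gated channel, had 85, 58 and 83 counts in vehicle libraries and 2, 9 and 0 in TNF-alpha libraries. It reached 10 counts in the vehicle group only, and its fitted log2 fold change of -4.29 became -6.07 without TNF-alpha replicate 2. Scn3a, an isoform of embryonic brain, rose from 0.51 ± 0.10 to 0.93 ± 0.15 CPM (adjusted p = 0.0201). The Scn3a call was lost without vehicle replicate 2 (0.0665) or TNF-alpha replicate 1 (0.0634) or 3 (0.0666). Both beta subunit members rose, and 0 of 2 passed without vehicle replicate 1, TNF-alpha replicate 2 or TNF-alpha replicate 3. Scn3b rose from 1.25 ± 0.35 to 2.08 ± 0.35 CPM (adjusted p = 0.0307), and was not past the test without vehicle replicate 1 (0.0811) or TNF-alpha replicates 2 (0.104) and 3 (0.0721).

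**Figure D2:**
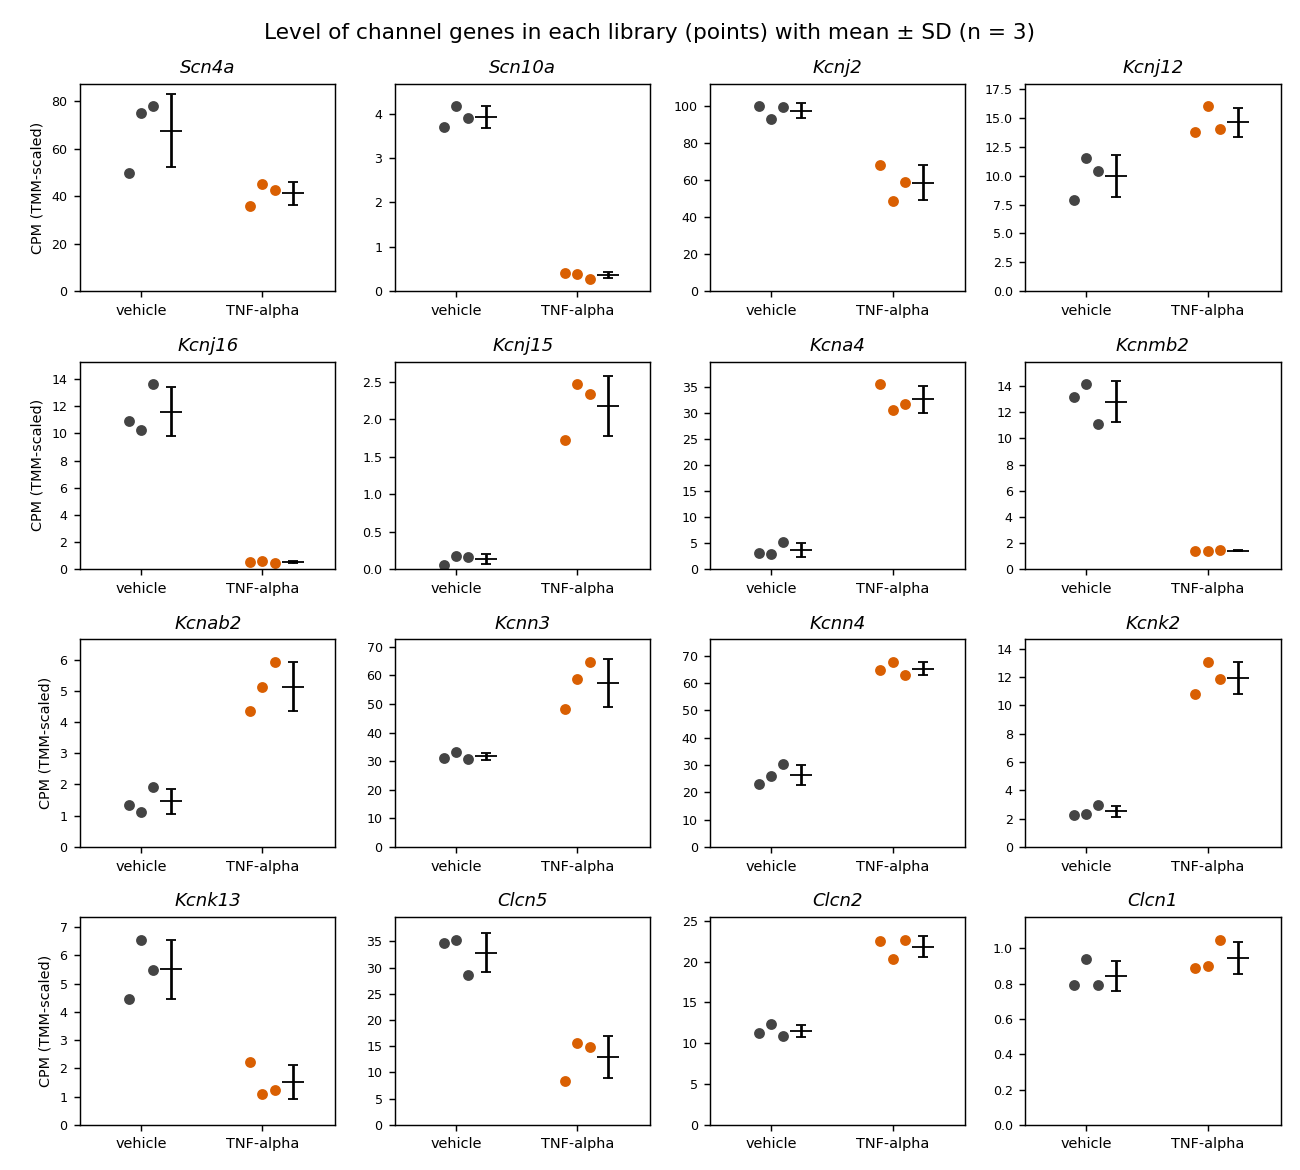
TMM-scaled CPM (vertical axis, linear from 0) of 16 channel genes in each of the 3 vehicle and 3 TNF-alpha libraries (points), with the group mean ± SD beside them. In 15 of the panels the groups do not overlap, and in Clcn1 they do. The genes were selected for display, nearly all of them past the test, so this number reflects the selection. Over all tested genes, 64.5% had groups that did not overlap.

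Among inward rectifiers, 3 of 8 members rose and 2 fell, and the most abundant member was among those that fell. Kcnj2, a Kir channel gene that sets the resting potential of muscle (chromosome 11, 111066164 to 111076821, plus strand), had 100.1, 93.0 and 99.7 CPM in vehicle libraries and 68.0, 49.0 and 58.9 CPM in TNF-alpha libraries (-0.74 ± 0.11, adjusted p = 6.77e-04). Kcnj16, whose product forms channels together with other Kir subunits, starts upstream on the same strand (110968033 to 111027968), 38.2 kb from Kcnj2. It fell 20.9-fold, from 10.9, 10.3 and 13.7 CPM to 0.56, 0.63 and 0.48 CPM (-4.38 ± 0.17, adjusted p = 4.5e-07). It had decimal counts in 5 libraries, as when reads are split between features. Kcnj12, another strong inward rectifier of muscle and heart, rose from 9.97 ± 1.86 to 14.6 ± 1.25 CPM (adjusted p = 0.00958). As a share of the class per length, Kcnj2 went from 71.6% ± 2.96 to 62.2% ± 5.82, Kcnj12 from 14.5% ± 2.73 to 31.1% ± 4.83 and Kcnj16 from 11.7% ± 1.33 to 0.83% ± 0.15.

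Kcnj15, a Kir channel gene known from kidney and other epithelia, rose 16.2-fold. It had 5, 16.25 and 15.25 counts in vehicle libraries and 161, 212 and 195 in TNF-alpha libraries (4.02 ± 0.35, adjusted p = 2.34e-05). Kcnj4 had 8, 4 and 2 counts in vehicle libraries and 22, 45 and 56 with TNF-alpha, so it reached 10 counts in the TNF-alpha group only, and its log2 fold change of 3.14 became 3.82 without vehicle replicate 1. Kcnj11, the pore of the muscle channel that is closed by ATP, had 0.73, 1.00 and 1.24 CPM and then 0.40, 0.68 and 0.85 CPM, with groups that overlapped (-0.64 ± 0.33, adjusted p = 0.128). Abcc8 and Abcc9, which encode the sulfonylurea receptors that complete that channel and are no members by symbol, fell, with log2 fold changes of -1.24 ± 0.28 and -1.41 ± 0.19 (adjusted p = 0.00507 and 3.38e-04). Kcnj13 and Kcnj14 were not past the test (0.02 and 0.67 on the log2 scale). Exons of Kcnj13 overlap those of Gigyf2 over 49.1% of their length.

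Of 16 voltage-gated potassium alpha subunits, 7 rose, 1 fell and 8 did not pass. Kcna4, which encodes a rapidly inactivating A-type channel (chromosome 2, 107290639 to 107298502, plus strand), had 3.03, 2.84 and 5.21 CPM in vehicle libraries and 35.6, 30.6 and 31.6 CPM in TNF-alpha libraries. It rose 8.81-fold (3.14 ± 0.24, adjusted p = 4.44e-05), with vehicle replicate 3 the highest of the controls and far below every TNF-alpha library. Kcna4 had decimal counts in all 6 libraries. Its share of the Kv class per length went from 3.49% ± 1.15 to 22.4% ± 4.0.

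Kcna1, another Shaker-type gene, had 2, 6 and 8 counts in vehicle libraries and 88, 45 and 59 with TNF-alpha, and so reached 10 counts in the TNF-alpha group only. Kcnh7, an ERG-type gene, did the opposite, with 73, 53 and 132 counts in vehicle and 9, 5 and 0 with TNF-alpha. Its log2 fold change of -4.15 became -4.96 without TNF-alpha replicate 1. Kcnh1, an EAG-type gene known in myoblasts at the onset of fusion, rose from 1.71 ± 0.36 to 3.26 ± 0.92 CPM (adjusted p = 0.0107). Kcnq1, Kcnc2 and Kcnd1 rose by 1.09, 0.56 and 0.60 on the log2 scale, with adjusted p of 0.0179, 0.0249 and 0.0466. Kcnq1 lost its call without vehicle replicate 1 (0.0631) or 3 (0.0508) or TNF-alpha replicate 2 (0.0670) or 3 (0.0603), and Kcnc2 without vehicle replicate 1 (0.0897) or 2 (0.0883) or TNF-alpha replicate 1 (0.0671) or 2 (0.0670). Kcnd1 was not past the test without vehicle replicate 1 (0.139) or 2 (0.141) or TNF-alpha replicate 1 (0.0523), 2 (0.0649) or 3 (0.168). Without vehicle replicate 1, or without TNF-alpha replicate 2, 4 Kv genes rose in place of 7.

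Among the Kv genes that did not pass were Kcna7, Kcnc1, Kcnc4, Kcnf1, Kcnh2 and Kcnh3, with log2 fold changes from -0.42 (Kcnh3) to 0.64 (Kcna7). Kcna7, a Shaker-type gene of skeletal muscle and heart, lay at the threshold (adjusted p = 0.0501), and passed without vehicle replicate 2 (0.0293) or TNF-alpha replicate 1 (0.0256). Kcnf1, a silent subunit that modifies other Kv channels, passed without vehicle replicate 3 (log2 fold change 0.47, adjusted p = 0.0104). Kcnh2, the ERG channel gene of heart, had 120 and 167 counts in TNF-alpha replicates 1 and 3 and 416 in replicate 2. Without replicate 2 its log2 fold change went from -0.22 to -0.95 (adjusted p = 0.0205).

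Of 9 auxiliary potassium channel subunits, 3 rose and 2 fell. Kcnmb2, a beta subunit that makes the large-conductance calcium-activated (BK) channel inactivate (chromosome 3, 31902507 to 32200180, plus strand), fell 9.14-fold. It went from 13.2, 14.2 and 11.1 CPM to 1.37, 1.38 and 1.46 CPM (-3.19 ± 0.13, adjusted p = 5.34e-07), with narrow and widely separated groups. Kcnma1, the BK pore gene, had only 0.40, 0.29 and 0.41 CPM in vehicle libraries and 0.73, 0.80 and 1.18 CPM with TNF-alpha, and rose (1.30 ± 0.29, adjusted p = 0.00486). Per length, Kcnmb2 stood at 4.09 ± 0.51 CPM per kb in vehicle and Kcnma1 at 0.022 ± 0.004, and with TNF-alpha at 0.45 ± 0.015 and 0.053 ± 0.014. Kcnab2, a cytoplasmic beta subunit of Shaker-type channels, rose 3.51-fold, from 1.35, 1.13 and 1.91 CPM to 4.36, 5.12 and 5.93 CPM (1.81 ± 0.22, adjusted p = 1.58e-04). Kcnab3, of the same family, fell from 5.2 ± 0.33 to 4.11 ± 0.06 CPM (adjusted p = 0.0314). The Kcnab3 call was lost whichever library was left out, with adjusted p of 0.0544, 0.0526 and 0.0936 without vehicle replicates 1 to 3 and 0.0532, 0.0597 and 0.0906 without TNF-alpha replicates 1 to 3. Kcnab1 was not past the test (-0.21 ± 0.26).

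Kcne4, a single-span subunit that restrains Kv currents, rose from 0.79, 0.56 and 0.43 CPM to 1.78, 1.41 and 1.18 CPM (1.30 ± 0.28, adjusted p = 0.00386). Kcnmb4, another BK beta subunit, rose by 1.28 ± 0.23, but its counts cannot be separated from those of Kcnmb4os1 and Kcnmb4os2, the antisense transcripts whose exons overlap its own. Their summed counts came to 95.9% to 100% of the Kcnmb4 count in every library, and all of these rows carried decimals in 5 or 6 libraries. Kcnmb4os1 and Kcnmb4os2 rose by 1.18 ± 0.27 and 1.41 ± 0.23, while Kcnq1ot1, the imprinted antisense RNA at Kcnq1, was not past the test (0.10 ± 0.16). The calcium-binding Kv subunits Kcnip2, Kcnip3 and Kcnip4 had log2 fold changes of -0.41, -1.06 and -0.66 and were not past the test. Kcnip3 passed without TNF-alpha replicate 2 (-1.74, adjusted p = 0.0216).

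In the class of calcium- and sodium-activated potassium channels and their relatives, 4 of 6 members rose and 0 fell. Kcnn4, the intermediate-conductance channel (chromosome 7, 24370263 to 24386690, plus strand), had 23.2, 25.9 and 30.4 CPM in vehicle libraries and 65.0, 67.9 and 63.1 CPM in TNF-alpha libraries (1.30 ± 0.10, adjusted p = 1.11e-05). Kcnn3, the small-conductance channel of immature and denervated muscle (chromosome 3, 89520164 to 89675132, plus strand), went from 31.0, 33.1 and 30.9 CPM to 48.3, 58.6 and 64.8 CPM (0.85 ± 0.10, adjusted p = 1.72e-04). Kcnn1 rose from 6.78 ± 0.91 to 10.2 ± 0.90 CPM (adjusted p = 0.00397). In all 3 of these genes, and in Kcnma1, the TNF-alpha libraries lay above all vehicle libraries, as in 32.6% of all tested genes. In Kcnt2 they lay below all vehicle libraries, as in 31.9% of all tested genes. Summed over the class without regard to length, levels went from 66.6 ± 4.03 to 135 ± 7.41 CPM. Most of this sum was Kcnn3 and Kcnn4. The sum over all 63 members went from 810 ± 44.1 to 805 ± 27.2 CPM. Kcnn4 held 51.6% ± 3.52 of the class per length in vehicle and 61.3% ± 2.63 with TNF-alpha. Kcnu1, a relative gated by alkaline pH and voltage, was not past the test (0.30 ± 0.23, adjusted p = 0.300), and neither was the sodium-activated Kcnt2 (-1.17 ± 0.46, adjusted p = 0.0588, and 0.0418 without TNF-alpha replicate 1).

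Of 7 tandem-pore channels, 3 rose and 1 fell. Kcnk2, a channel opened by membrane stretch and lipids (chromosome 1, 189207930 to 189402273, minus strand), rose 4.74-fold, from 2.23, 2.34 and 2.97 CPM to 10.8, 13.1 and 11.9 CPM (2.25 ± 0.14, adjusted p = 4.57e-06). Kcnk13 fell 3.61-fold, from 4.46, 6.57 and 5.49 CPM to 2.22, 1.11 and 1.24 CPM (-1.85 ± 0.28, adjusted p = 7.09e-04). The groups did not overlap for either gene, with TNF-alpha replicate 1 the highest of its group for Kcnk13. Per length, Kcnk13 went from 32.2% ± 5.11 to 6.29% ± 2.83 of the class and Kcnk2 from 9.25% ± 0.66 to 30.6% ± 2.29. Kcnk5, an acid-sensitive channel, had 4.92, 6.33 and 9.04 CPM and then 9.53, 10.8 and 12 CPM (0.67 ± 0.21, adjusted p = 0.0270). The Kcnk5 call was lost without vehicle replicate 1 (0.0567) or 2 (0.0837) or TNF-alpha replicate 2 (0.0671) or 3 (0.0905). Kcnk12 rose from 0.29 ± 0.05 to 0.90 ± 0.22 CPM (adjusted p = 0.00159). Kcnk4, Kcnk6 and Kcnk7 were not past the test.

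**Figure D3:**
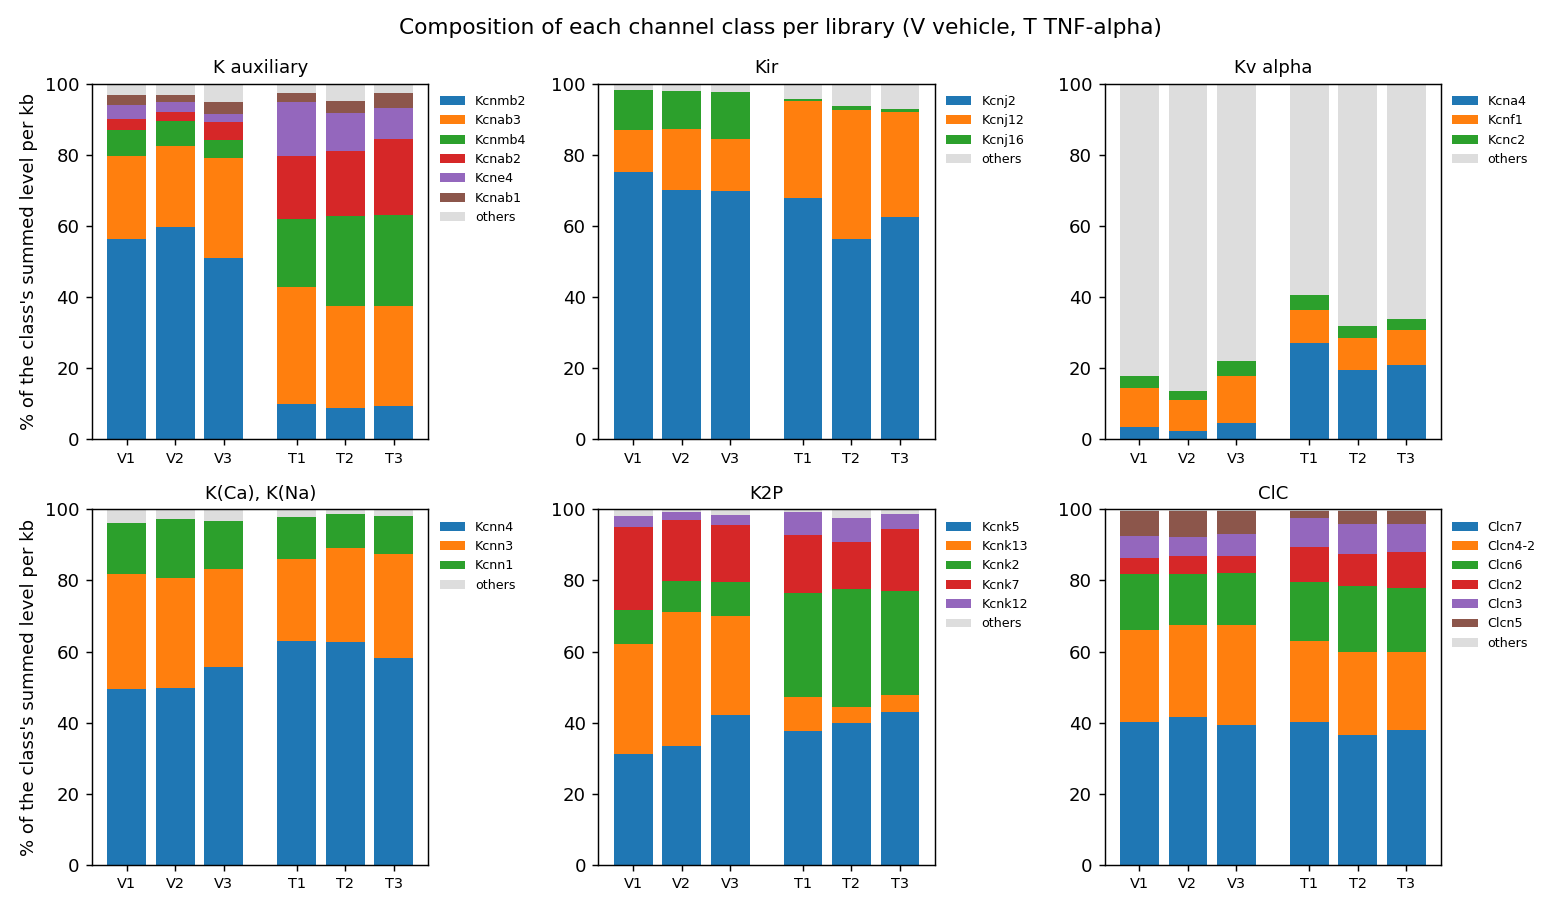
Share of each class's summed level per kb of exons (vertical axis, percent) held by single genes in the 3 vehicle (V) and 3 TNF-alpha (T) libraries, in 6 classes. Genes drawn singly reach 3% in a group. Grey holds the genes of a class not drawn singly, whatever their level. Kcna4 and Kcnk2 widen with TNF-alpha, and Kcnmb2, Kcnj16 and Kcnk13 narrow.

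Of 7 ClC genes, 2 rose, 2 fell and 3 did not pass. Clcn5, an endosomal chloride-proton exchanger (chromosome X, 7153810 to 7319358, minus strand), fell 2.54-fold, from 34.7, 35.4 and 28.5 CPM to 8.37, 15.6 and 14.9 CPM (-1.34 ± 0.24, adjusted p = 0.0028). TNF-alpha replicate 1 was the lowest and the groups were separated. The related exchanger gene Clcn4-2 (Clcn4 in GENCODE) fell from 92.1 ± 1.46 to 73.4 ± 2.88 CPM (adjusted p = 0.00106), whereas Clcn3, also of endosomes, rose from 40.5 ± 3.47 to 53.5 ± 1.6 CPM (adjusted p = 0.00155). Clcn2, a widely expressed plasma membrane channel, rose from 11.3, 12.4 and 10.9 CPM to 22.5, 20.3 and 22.7 CPM (0.92 ± 0.09, adjusted p = 3.77e-05). Clcn7, the lysosomal exchanger and the member with the highest mean level per kb of exons, had 89.3, 91.4 and 78.8 CPM and then 81.5, 72.3 and 75.1 CPM. It was not past the test (-0.18 ± 0.08, adjusted p = 0.0684), but passed without vehicle replicate 3 (0.0172) or TNF-alpha replicate 1 (0.0364). Clcn6 was not past the test (0.15 ± 0.08).

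Clcn1, the main chloride channel of adult muscle, was scarce in every library. It had 66, 88 and 73 counts in vehicle libraries and 83, 77 and 88 with TNF-alpha, or 0.84 ± 0.08 and 0.95 ± 0.09 CPM (0.17 ± 0.21, adjusted p = 0.526). Per length it held 0.38% ± 0.03 of the ClC class in vehicle and 0.46% ± 0.05 with TNF-alpha. Its exons overlap those of Fam131b over 8.20% of their length.

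**Figure D4:**
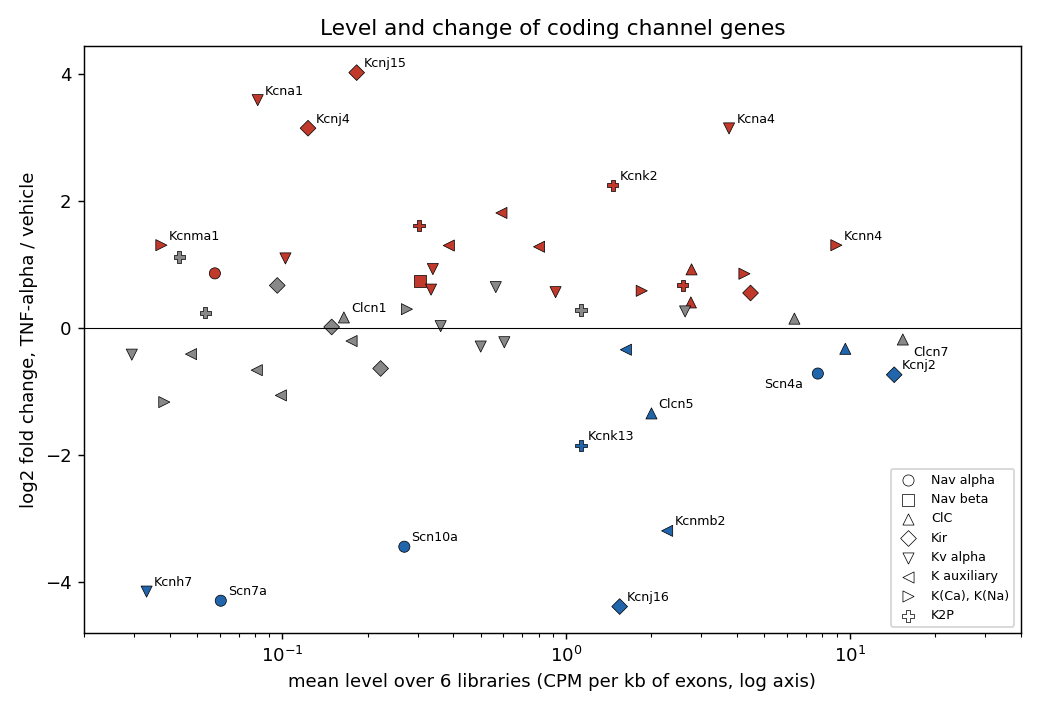
Mean level over all 6 libraries (horizontal axis, CPM per kb of exons, log scale) against the log2 fold change of TNF-alpha over vehicle for 55 of the 60 coding members. Marker shapes give the class, red and blue mark genes that rose or fell at an adjusted p under 0.05, and grey marks the rest. Rises above 3 are found from Kcna1 at low level to Kcna4 at 3.75 CPM per kb, while Clcn7 and Kcnj2 lie far to the right.

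Rows that matched by symbol but not by count numbered 54, of which 12 were at 0 in every library, Scn11a and Kcna5 among them. Just inside the threshold were Kcnk6, with 6 to 39.33 counts, and the genes Kcna1, Kcnj4, Kcnh7 and Scn7a given above. Just outside were Kcna3, with 13, 5 and 12 counts in vehicle libraries and 0 in all TNF-alpha libraries, Kcnmb1, with 7, 28 and 32.55 and then 2.1, 5.35 and 5.05, and Kcnj8, with 9, 20 and 9 and then 2, 4 and 6. Kcnj9, Kcnj6, Kcng2, Kcnd3, Kcnv2 and Kcnmb3 reached 10 counts in 1 library, as did Kcnj8, but their groups overlapped. Of the 63 members, 19 had a mean under 1 CPM in both groups and 22 reached 10 CPM in a group. No detection limit was computed, so for the low genes a failure to pass the test does not show that levels were equal.

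Genes that work with these channels but fall outside the symbol rule moved in both directions. Of 13 tested genes of the sodium pump and its FXYD regulators, which restore the ion gradients, 9 fell and 1 rose (median log2 fold change -0.51). Fxyd6 fell by 1.21 ± 0.11 (log2; adjusted p = 3.88e-05), and the gene that rose was Fxyd5, from 20.9 ± 4.52 to 119 ± 11.9 CPM (adjusted p = 1.7e-05). Of 13 cation chloride cotransporters and their kinases, 7 rose and 1 fell (median 0.36). The kinase gene Stk39 rose by 1.02 ± 0.09 (adjusted p = 2.39e-05), and the inward cotransporter gene Slc12a2 fell by 0.66 ± 0.10 (adjusted p = 7.47e-04). Of 18 tested genes listed as chloride channels or related proteins outside the ClC family, 8 rose and 5 fell (median 0.15). Lrrc8d, a subunit of the channel opened by cell swelling, rose by 0.96 ± 0.05 (adjusted p = 2.44e-06) and Best3, a bestrophin, fell by 2.18 ± 0.14 (adjusted p = 4.57e-06).

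Of 18 other sodium and cation channel genes, 6 rose and 2 fell (median 0.16), and 3 rose without vehicle replicate 2. Trpc1 rose by 0.87 ± 0.15 (adjusted p = 0.00113) and Nalcn, the sodium leak channel, fell by 2.77 ± 0.27 (adjusted p = 4.9e-05). Nalcn was scarce, at 0.97 CPM in vehicle and 0.14 CPM with TNF-alpha. With a filter of at least 1 CPM in 3 libraries, 1 gene of this list fell in place of 2. Of 28 channel partners, anchors and splicing regulators, 4 rose and 14 fell (median -0.32). Sptbn4, a spectrin, rose by 1.85 ± 0.31 (adjusted p = 9.49e-04) and Sntb1, a syntrophin of the dystrophin complex, fell by 1.49 ± 0.08 (adjusted p = 1.47e-06). Sptbn4 was scarce, at 0.30 CPM in vehicle and 1.09 CPM with TNF-alpha. Of 13 calcium channel subunit genes, 1 rose and 8 fell (median -0.35), with Cacng6 at 0.47 ± 0.13 (adjusted p = 0.0128) and Stac3, which places the calcium channel at the triad, at -1.72 ± 0.08 (adjusted p = 1.13e-06). These counts stand beside the 27.6% risen and 27.9% fallen of all tested genes.

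**Figure D5:**
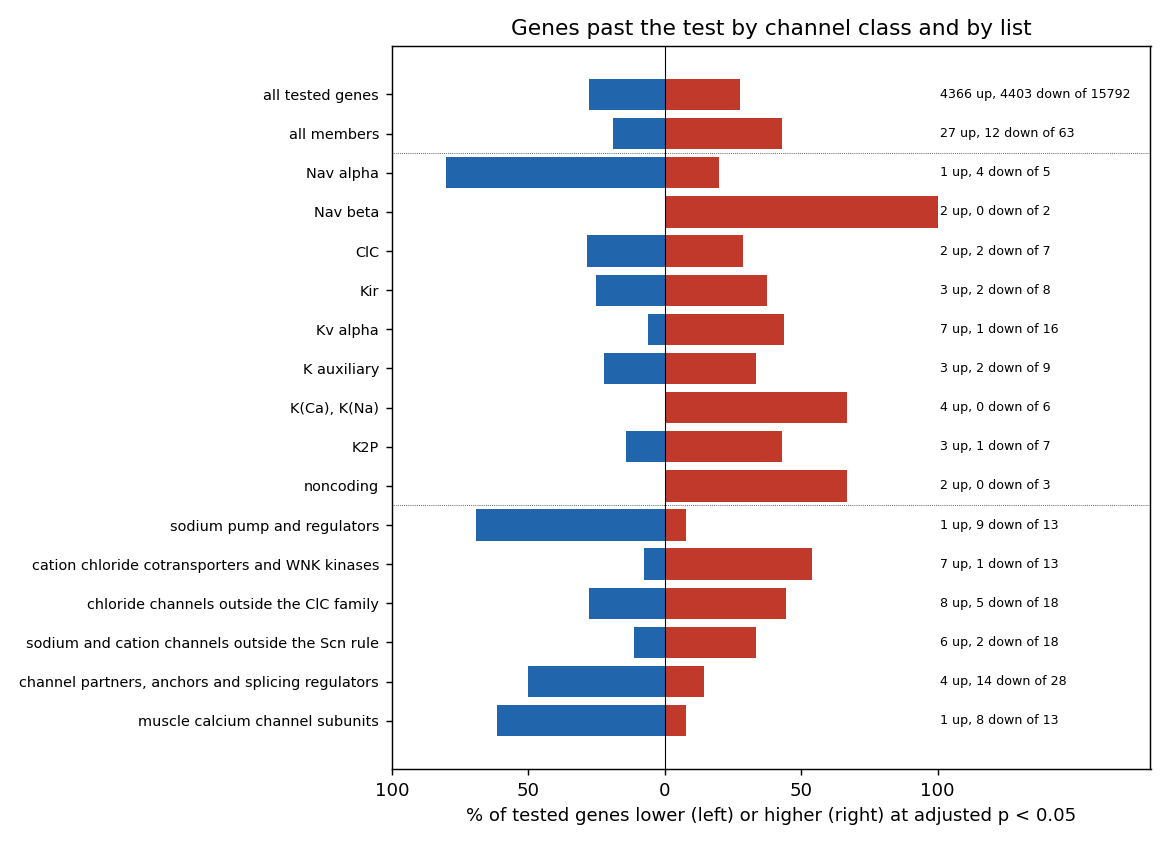
Percent of tested genes that rose (red, right) or fell (blue, left) at an adjusted p under 0.05, for all tested genes, all 63 members, each channel class and each list of related genes, with the counts at the right. Sodium alpha subunits, the sodium pump and the calcium channel lists lie mostly to the left, and the calcium- or sodium-activated potassium class lies to the right.

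Markers were read in the same libraries. Of 11 tested myotube markers, 9 fell and 1 rose, and their summed level was 11052 to 12957 CPM in vehicle libraries and 7621 to 8681 CPM with TNF-alpha, so the libraries carry the labelled cell type. Undifferentiated myoblast markers (6 tested, 4 fallen, 1 risen) summed to 684 to 858 and 554 to 609 CPM. Fewer cells of a type and less RNA per cell cannot be told apart here, and the part of either in the channel values was not tested. Of 8 neuron markers 5 were tested, of which 3 fell and 1 rose, with sums of 95 to 161 and 49.5 to 93.5 CPM, and Snap25, Rbfox3 and Elavl4 had at most 2 counts in any library. Of 6 macrophage markers 3 were tested and 2 rose (Cd68 and Csf1r), with sums of 5.29 to 5.52 and 20.8 to 22.5 CPM, while Tyrobp was at 0 and Ptprc and Adgre1 had at most 4 and 2 counts. Markers of glia summed to at most 4.13 CPM and of endothelium to at most 6.14 CPM in any library. Cardiac markers (5 tested, 1 risen, 2 fallen) summed to 49.9 to 103 CPM in vehicle and 24.3 to 36.8 CPM with TNF-alpha, and their part in the sodium channel values was not tested.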

How the data were processed

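Gene expression was measured by RNA sequencing of polyadenylated RNA in 3 vehicle and 3 TNF-alpha constructs, grouped by the sample titles, with columns matched by library name. The authors deposited estimated counts per gene. In each library 20.1% to 21.0% of values carry decimals, while the design text speaks of integer counts. TopHat2 2.1.1, Bowtie2 2.3.5.1, featureCounts of Subread 2.0.0 and DESeq2 are named, with mm10 and GRCm38, per the submitters' processing notes. The kit was stranded, per the labels' protocols. Counting options, strand use included, are not given in the sources. Libraries held 81713008 to 93533748 counts. Of whole values from 1 to 20, 64.7% to 67.5% were even, so counts may hold both reads of a pair, and overlapping or near-identical genes can share reads.

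Counts were rounded and tested with edgeR 4.0.16 (R 4.3.3): filterByExpr, TMM, glmQLFit with robust estimation and glmQLFTest, group only, with Benjamini-Hochberg adjustment over all 15792 tested genes. Standard errors come from the F statistic. CPM are TMM-scaled, and levels per kb use the union of exons in GENCODE M21 (GRCm38), which gave positions for all 63 members. The procedure was tested on simulated data. Members and lists were chosen with earlier results of these data known. Named members were 8 fixed muscle channel genes, the top 8 by log2 fold change in each direction (past the test, groups apart, at least 1 CPM in a group) and the most abundant of each class, and 5 members, though counted and tested, are not reported here. Members outside this rule, Abcc8, Abcc9 and the FGF genes below were named after their values were seen. Replicates differed by more than sampling noise (chi-square per degree of freedom 23.1 to 70.6). Tried as alternatives were scaling by median ratio or upper quartile, testing without a filter, a filter of at least 1 CPM in 3 libraries, DESeq2 1.42.0, limma-voom (limma 3.58.1), no robust estimation, a replicate block, leaving out each library and, for shares, the longest transcript as the length.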

Additional observations from a re-analysis of the deposited data

How the results depend on the processing

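Between 21 and 28 members rose and 10 to 13 fell under every alternative run, with 21 to 27 and 11 to 13 when 1 library was left out. Of the 39 members called, 30 were called in every alternative that gave them a value and 9 were lost in at least 1, while 6 others were called in at least 1. In 7 members that had not passed the test the sign changed. Upper-quartile scaling gave -0.0182 for Kcnj13 and -0.0043 for Kcnc4, and limma-voom gave -0.0157 for Kcnj13. Leaving out 1 library at a time gave, among others, log2 fold changes of -0.3840 to 0.3171 for Kcnj13, -0.0701 to 0.6161 for Kcnk4, -0.4175 to 0.0021 for Kcnab1, -0.3302 to 0.2863 for Kcnc4, -0.9526 to 0.1158 for Kcnh2 and -0.0152 to 0.2157 for Kcnq1ot1. The cause was not tested. Upper-quartile scaling ended the call of Kcnd1 (adjusted p = 0.0572) and gave one to Clcn7 (0.0361). Kcnt2 passed with limma-voom (0.0455), and Kcna7 with DESeq2 (0.0494) and with the stricter filter (0.0449). Same-numbered libraries had correlations of 0.04, -0.05 and -0.11 between their deviations from the group means. Not every sample correlated best with its own number, so no pairing by number was seen in these values. Such weak correlations cannot show whether the constructs were made in pairs. With the replicate block 28 members rose and 12 fell. Kcnab3 was then not past the test (0.0608), and Kcna7 (0.0352) and Kcnt2 (0.0425) passed. With the longest transcript as the length, Kcnmb2 held 7.08% of its class with TNF-alpha in place of 9.32%. Among tandem-pore channels with TNF-alpha, Kcnk5 led by the union of exons (40.1% against 30.6% for Kcnk2) and Kcnk2 by the longest transcript (36.2% against 34.5% for Kcnk5). In vehicle replicate 2 Kcnk13 led by the union of exons (37.9% against 33.4% for Kcnk5). With the filter of at least 1 CPM, 9 in place of 14 channel partners and 5 in place of 8 calcium channel subunits fell. That filter takes low genes out of the test. Abcc8, Fgf12, Kcnrg, Lrrc26, Dpp6, Cacna1d and Cacnb4, which fell in the main fit, had means under 1 CPM in both groups. Among calcium channel subunits that fell, only Cacna1d and Cacnb4 were that low, so not every lost call was of a low gene. Of the others, Cacnb1 lay closest to the threshold in the main fit (edgeR adjusted p = 0.0486). Intervals and low counts rest on 3 libraries per group.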

Other observations

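The fibroblast growth factor homologous factors, intracellular proteins that bind sodium channels and shift their inactivation, differed among themselves. These genes were chosen after their values were seen. Fgf14 had 105, 96 and 106 counts in the vehicle libraries and 0 in all 3 TNF-alpha libraries. Set against 3 counts per TNF-alpha library, it was at least 33.4-fold lower (edgeR adjusted p = 2.25e-05). Fgf12 had 59, 18 and 25.5 counts and then 3, 2 and 2 (adjusted p = 0.00142). The more abundant Fgf11 and Fgf13 overlapped between groups, at 26.8 ± 2.71 and 28.4 ± 0.89 CPM (SD, n = 3; adjusted p = 0.422) and at 11.8 ± 2.24 and 11.4 ± 1.16 CPM (adjusted p = 0.759).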
